A study of Mus musculus with 6 samples.

Results

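Open chromatin was described around *Sox8*, *Sox9* and *Sox10*, the 3 genes of the SOXE group of transcription factors, in neural stem cell cultures that lack an enhancer of *Sox2*. For each gene, every peak that overlapped the gene body or the 100 kb on either side of it was taken from the peak lists of 6 libraries, and peaks that overlapped each other by 1 bp or more were merged into regions. This gave 274 peaks in 66 regions, out of 120143 merged regions in the genome. Of the 66 regions, 33 lay in the *Sox8* window, 11 in the *Sox9* window and 22 in the *Sox10* window. The regions were taken by position, without the use of peak values.

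Accessible DNA was profiled by ATAC-seq, which uses a transposase to insert sequencing adapters into open chromatin. The cells were neural stem cell (NSC) cultures grown from the subependymal zone (SEZ), a neurogenic niche of the adult brain, of mice aged 10 weeks. All 6 libraries carried a CRISPR-Cas9 deletion of *Srr2*, a *Sox2* enhancer (*Srr2* del/del), so the comparison was between culture states within the mutant, with no wild-type library used here. Proliferating cultures (PROLIF, 3 libraries) had spent 2 days in vitro (DIV), according to the sample labels, whereas the design text of the series gives 3 DIV. Early differentiating cultures (DIFF, 3 libraries) had spent 2 DIV on Matrigel with FGF and then 1 day without mitogens in medium with 2% fetal bovine serum. Loss of mitogens and addition of serum came together, so their parts cannot be told apart. Libraries of each state are numbered 1, 2 and 4. The mutation was made with separate pairs of guides in separate mouse lines, and the line behind each library is not stated.

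SOX factors bind a short DNA sequence through a high-mobility-group domain. In the developing nervous system the SOXE factors act in glial lineages. SOX9 takes part in the switch to gliogenesis and is kept in astrocytes and in neural stem cells of the adult niche. SOX10 drives oligodendrocyte differentiation and myelin genes and is the central factor of neural crest glia. SOX8 overlaps in function with SOX9 and SOX10 in oligodendrocyte precursors. Outside the nervous system, SOX9 directs cartilage formation and, with SOX8, testis development.

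Reference sequences from the regions that the results turn on are given here. They run from 50 bases before to 50 bases after the summit of the best-ranked peak (GRCm38), except for the *Sox8* promoter, which is the 250 bases before the start site from RefSeq (GRCm38.p6). RefSeq promoter entries matched 1 of the 3 members, *Sox8*. Capitals mark SOX motifs (ACAAAG or ACAATG), AP-1 motifs (TGACTCA or TGAGTCA) and NFI motifs (TTGGCA), on either strand, and in the promoter also GC boxes (GGGCGG). The *Sox8* +8.89 kb and *Sox9* +29.1 kb regions are shown as the strongest distal regions of their windows. The region 47.9 kb upstream of *Sox8*, which holds none of these motifs in the letters shown, is added because it had the lowest adjusted p for a rank difference between the states. The rest are regions described singly below that hold a motif.
*Sox8* promoter, chr17:25570687-25570936, minus strand: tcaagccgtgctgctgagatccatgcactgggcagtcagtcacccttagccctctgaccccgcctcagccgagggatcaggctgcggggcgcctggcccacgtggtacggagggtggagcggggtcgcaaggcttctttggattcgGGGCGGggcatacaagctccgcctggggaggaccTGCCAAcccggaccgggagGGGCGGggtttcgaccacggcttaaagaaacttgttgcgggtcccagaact
*Sox8* 8.89 kb downstream, chr17:25561744-25561844, plus strand: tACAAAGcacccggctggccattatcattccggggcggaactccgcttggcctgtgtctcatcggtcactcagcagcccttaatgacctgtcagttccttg
*Sox8* 52.4 kb downstream, chr17:25518278-25518378, plus strand: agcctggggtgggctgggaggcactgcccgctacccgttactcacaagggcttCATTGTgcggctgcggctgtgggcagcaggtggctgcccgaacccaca
*Sox8* 47.9 kb upstream, chr17:25618551-25618651, plus strand: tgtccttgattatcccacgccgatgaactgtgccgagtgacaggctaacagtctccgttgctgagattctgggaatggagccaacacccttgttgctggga
*Sox9* 29.1 kb downstream, chr11:112811248-112811348, plus strand: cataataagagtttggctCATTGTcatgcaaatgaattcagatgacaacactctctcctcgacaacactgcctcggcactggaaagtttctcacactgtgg
*Sox9* 78.7 kb downstream, chr11:112860897-112860997, plus strand: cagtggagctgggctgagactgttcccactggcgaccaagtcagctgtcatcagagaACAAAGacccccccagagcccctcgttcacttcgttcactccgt
*Sox10* 67.5 kb downstream, chr15:79097694-79097794, plus strand: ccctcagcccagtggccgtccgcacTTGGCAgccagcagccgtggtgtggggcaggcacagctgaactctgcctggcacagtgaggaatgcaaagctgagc
*Sox10* 13.2 kb downstream, chr15:79151972-79152072, plus strand: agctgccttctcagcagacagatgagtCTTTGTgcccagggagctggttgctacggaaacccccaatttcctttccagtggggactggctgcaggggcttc
The *Sox8* promoter holds 2 GC boxes, at positions 147 and 200 from the 5′ end, and an NFI motif at position 181. Among 32851 RefSeq promoters taken at this length, 32.74% hold a GC box and 12.28% an NFI motif. Of the 7 distal sequences, 5 hold a SOX motif and 1 an NFI motif, most of them shown for that reason, and at this length 16.78% of all regions hold a SOX motif. These are letter matches, and nothing was measured on factor binding.

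The lists held between 60006 and 88039 peaks, and their peaks covered between 26.2 and 36.3 Mb. Depth was read from the background pileup that the peak caller's values imply, which was between 2.85 and 3.63 reads in 5 libraries and 6.01 reads in DIFF replicate 4. DIFF replicate 4 was thus the deepest library and could hold weaker peaks than the others. A promoter peak, meaning a peak within 3 kb of an annotated start site, was present in all 6 libraries for 8 of 8 neural stem and progenitor markers, among them *Sox2*, *Nes* and *Pax6*. The same was true of 2 of 6 microglial, 1 of 5 endothelial and 3 of 6 mature oligodendrocyte markers, against 64.4% of protein-coding genes. These included the microglial genes *P2ry12* (percentiles 56.8 to 78.1) and *Csf1r*, the endothelial gene *Kdr* and the oligodendrocyte gene *Opalin* (81.0 to 86.9). The microglial gene *Aif1* had one in 2 PROLIF and 3 DIFF libraries, and *Tmem119* in 3 PROLIF and 2 DIFF libraries. The microglial genes *Cx3cr1* and *Itgam*, the endothelial genes *Cldn5*, *Tek* and *Cdh5* and the myelin gene *Mag* had no promoter peak in any library. The endothelial gene *Pecam1* had a promoter peak in all PROLIF and in no DIFF libraries, and the part of such cells in the results was not tested. Peak values of different libraries were compared by the percentile of a peak in its own list, ranked by −log10 p, since fold enrichment and p depend on depth.

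The first question was how much open chromatin lay around each gene. *Sox8* had the densest surroundings and *Sox9* the sparsest. Among 21938 protein-coding genes, each with its own window, the median number of regions per window was 15. The *Sox8* window stood at percentile 95.7 of that distribution, the *Sox10* window at 77.8 and the *Sox9* window at 31.6. A peak in all 6 libraries was found at 30 of the 66 regions (45.5%), against 33.4% of all merged regions. These were 14 regions around *Sox8*, 12 around *Sox10* and 4 around *Sox9*. Another 15 regions (22.7%) were found in 1 library, against 29.7% of all merged regions. The windows also differ in the genes they hold, with 10 protein-coding genes starting in the *Sox10* window, 4 in the *Sox8* window and *Sox9* alone in its own.

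**Figure D1:**
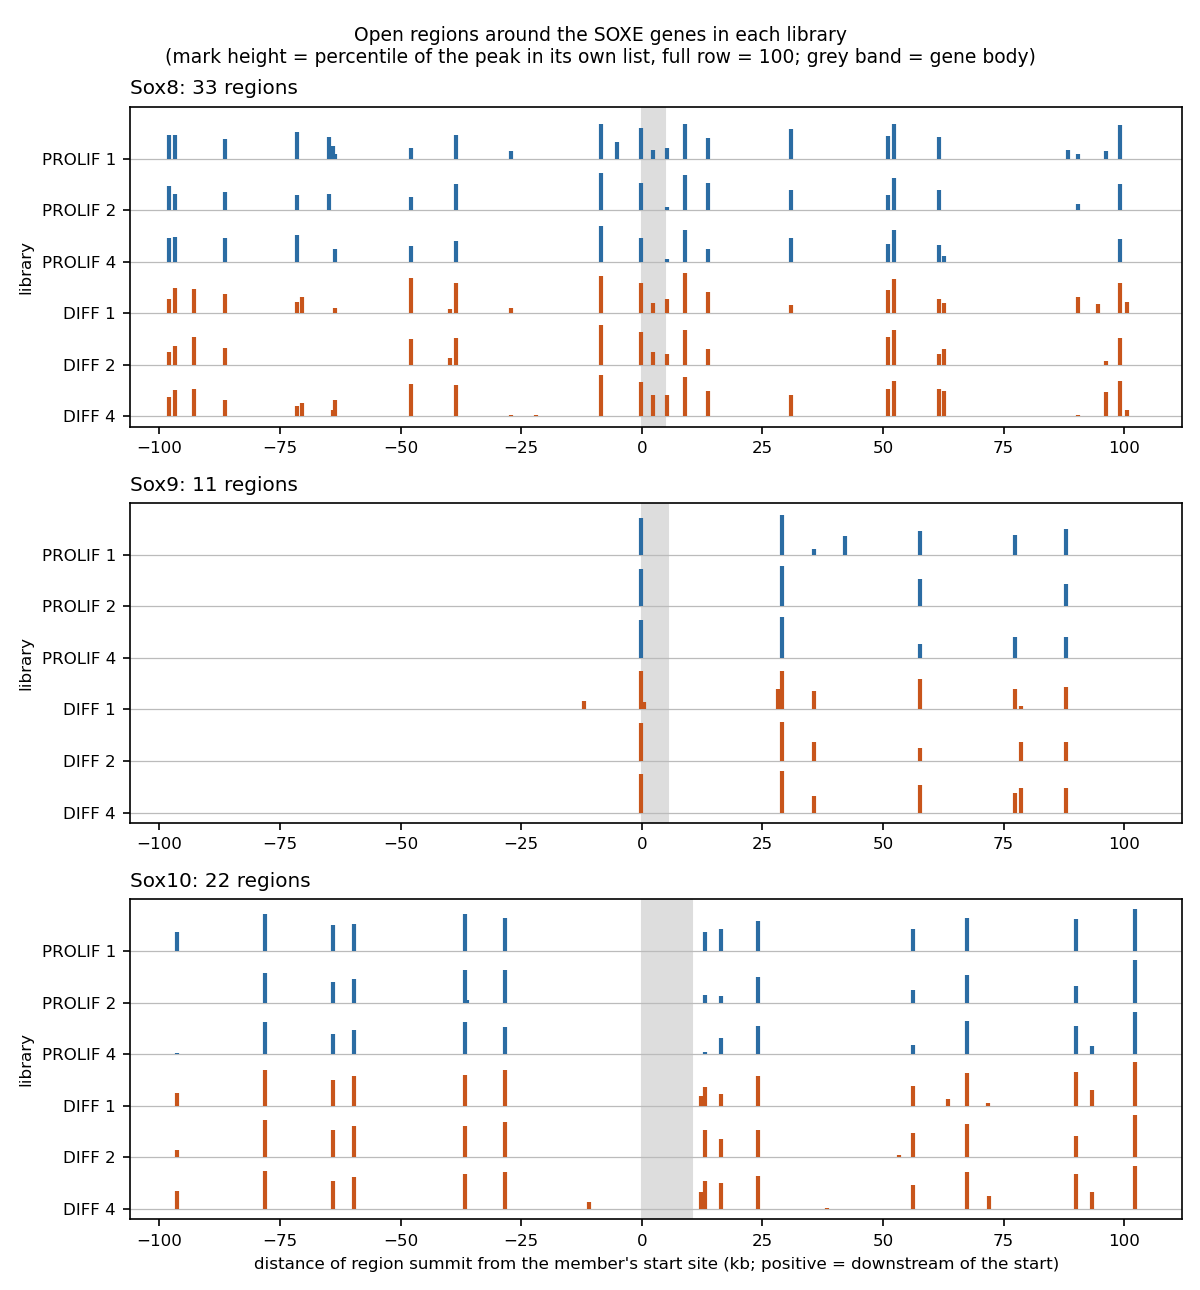
Position of the open regions around the 3 genes in each library. The x axis is the distance of the region's summit from the start site in kb, with positive values downstream in the direction of the gene, each row is a library (PROLIF blue, DIFF orange), mark height is the percentile of the peak in its own list and the grey band is the gene body. All 6 libraries have a peak at the *Sox9* start and 29.1 kb downstream of it, and no library has a peak over the *Sox10* gene body.

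*Sox9* (ENSMUSG00000000567.5, chromosome 11 from 112782224 to 112787760, plus strand) had a strong promoter peak in every library. The summit was 72 to 87 bp upstream of the start in the 6 libraries. The promoter peak stood at percentiles 84.9, 85.8 and 86.8 in PROLIF replicates 1, 2 and 4 and at 86.9, 87.3 and 88.2 in DIFF replicates 1, 2 and 4. All 3 DIFF values were above all 3 PROLIF values, though by little. The means were 85.8 ± 0.983 and 87.5 ± 0.678 (SD, n = 3), and a two-sided exact permutation test gave p = 0.1, the smallest that 3 libraries against 3 allow. The difference of 1.63 percentile points fell to 0.644 with lists of equal length (exact permutation p = 0.8) and to 0.025 when peaks were ranked by fold enrichment (exact permutation p = 1.0), and limma on the ranks of this region gave an adjusted p of 0.747. Among genes with a promoter peak in all 6 libraries, 26.0% had DIFF percentiles above all PROLIF percentiles, so this order was not particular to *Sox9*. The number of reads stacked at the summit was 82, 72 and 65 in PROLIF and 83, 89 and 125 in DIFF, the last in the deepest library. A separate weak peak in the gene body, 579 bp from the start, was found in PROLIF 1 and DIFF 1.

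Downstream of *Sox9*, 29.1 kb from its start site, lay an intergenic region that outranked the promoter. It spans chromosome 11 from 112810771 to 112812044, and its nearest annotated start site is that of the noncoding gene *Gm11681*, 12290 bp away. Its peaks stood at percentiles 91.5, 92.4 and 92.8 in PROLIF and at 87.1, 89.5 and 94.0 in DIFF. In each library this percentile was higher than that of the *Sox9* promoter. The states overlapped, and its rank difference between them was -0.11 with a standard error of 0.13 (limma on normal scores, adjusted p = 0.615). It carries a SOX motif 19 bases into the sequence shown above.

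The other regions around *Sox9* in all 6 libraries lay 57.7 and 88.0 kb downstream. The region at 57.7 kb ranged from percentile 30.6 in DIFF 2 to 68.6 in DIFF 1. The region at 88.0 kb ranged from 44.2 in DIFF 2 to 59.0 in PROLIF 1. Neither separated the states. For all 11 regions of this window, *Sox9* is the nearest protein-coding gene. Upstream, the 100 kb held a single peak beyond the promoter, in DIFF 1 at 11.9 kb. The next region found in at least 2 libraries lay 124.7 kb upstream, and the next found in all 6 lay 280.2 kb upstream.

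*Sox8* (ENSMUSG00000024176.10, chromosome 17 from 25565892 to 25570686, minus strand) had a promoter peak in every library, of middle rank. The summit was 4 to 139 bp upstream of the start, over an exon of the antisense noncoding gene *2810468N07Rik*, whose own start is 28 bp from the summit of the region. A peak there cannot be assigned to either gene. The promoter stood at percentiles 70.7, 60.8 and 53.6 in PROLIF and at 69.1, 74.8 and 78.3 in DIFF. PROLIF 1 lay above DIFF 1, so the states overlapped. The means were 61.7 ± 8.56 and 74.0 ± 4.65 (SD, n = 3; exact permutation p = 0.2, where 0.1 is the smallest possible). Ranked by fold enrichment, the difference of 12.4 points was 5.60 (exact permutation p = 0.5). An intronic region 2.33 kb downstream of the start was found in all DIFF libraries, at percentiles 22.4, 28.6 and 47.7, and in PROLIF 1 at 20.0.

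The strongest distal region of the *Sox8* window lay 8.89 kb downstream of the start site and past the end of the gene. The percentiles were 78.9, 80.7 and 72.5 in PROLIF and 90.7, 78.4 and 89.4 in DIFF. In each library it ranked above the *Sox8* promoter. The states overlapped (limma, adjusted p = 0.115). A region 52.4 kb downstream, 257 bp from the start of the noncoding gene *AC131323.2*, stood between percentiles 71.6 and 80.6 in all 6 libraries. Another lay in an intron of *Lmf1*, a lipase maturation factor, 38.4 kb upstream. Its percentiles were 52.9, 59.9 and 46.8 in PROLIF and 69.7, 61.7 and 70.6 in DIFF, without overlap, but the difference did not pass the test across regions (limma, adjusted p = 0.25). The promoter of *Lmf1* itself, at percentiles 79.1 to 93.5, held the highest rank of the window in 5 libraries, and in DIFF 1 the region 8.89 kb downstream of *Sox8* did.

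*Sox10* (ENSMUSG00000033006.10, chromosome 15 from 79154908 to 79165240, minus strand) had no promoter peak in any library, as for 25.4% of protein-coding genes. No peak of any library overlapped the gene body either, which holds for 24.0% of protein-coding genes. The stretch around the gene without a region in any library was 23.1 kb long, and the stretch without a region in all 6 libraries was 40.4 kb long. A peak list holds what passed the caller, so this shows a signal under its threshold and not closed chromatin. The smallest stack of reads that passed was between 10 and 15 reads, depending on the library.

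Upstream of *Sox10*, 2 regions in introns of the noncoding gene *Gm10863* were among the strongest distal regions of its window. The region 36.6 kb upstream stood at percentiles 83.5, 74.8 and 73.8 in PROLIF and at 70.2, 70.4 and 80.2 in DIFF, with the states overlapping. The region 28.3 kb upstream stood at 75.5, 74.0 and 62.2 in PROLIF and at 82.3, 81.3 and 83.2 in DIFF. These values did not overlap, but the difference did not pass the test across regions (limma, adjusted p = 0.113). For the second of these the nearest protein-coding gene is *Sox10*, and for the region 36.6 kb upstream it is *Pick1*, a scaffold protein. Another region, 67.5 kb downstream of the *Sox10* start, lay between *Eif3l* and *Micall1* and ranged from percentile 63.1 in PROLIF 2 to 83.9 in DIFF 4.

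**Figure D2:**
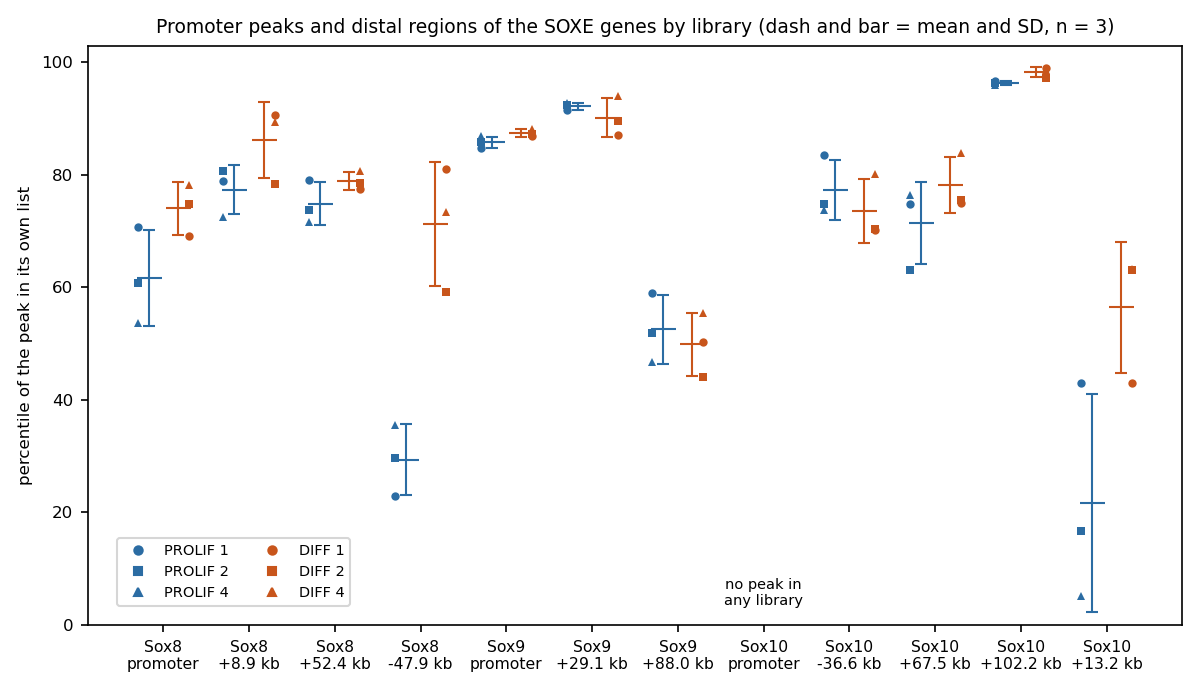
Percentile of each peak in its own list (y axis) for the promoters and for distal regions of the 3 genes (x axis, distance from the start site), with symbols for the replicate number, colour for the state, and dash and bar for mean and SD of 3 libraries. The *Sox9* promoter and the region 29.1 kb downstream lie close together in all libraries, whereas the region 47.9 kb upstream of *Sox8* lies between 23.0 and 35.5 in PROLIF and between 59.3 and 81.0 in DIFF.

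Most regions around *Sox10* belonged to its neighbours by position. Of the 22 regions, 12 lay within 3 kb of a protein-coding start site, none of them that of *Sox10*, and *Sox10* was the nearest protein-coding gene for 2. *Ankrd54*, *Eif3l* (a translation initiation factor subunit), *Micall1* (an endosomal trafficking protein), *1700088E04Rik*, *Polr2f* (an RNA polymerase subunit), *Pick1* and *Gm49486* had a promoter peak in all 6 libraries. *Baiap2l2* had one in 5 libraries and *Slc16a8*, a lactate transporter of the retina, in none. In the *Sox8* window *Tekt4* and *Lmf1* had a promoter peak in all 6 libraries and the somatostatin receptor gene *Sstr5* in none.

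The next question was whether the amount of open chromatin around the genes differed between the states. The *Sox8* window held 26, 20 and 20 peaks in PROLIF replicates 1, 2 and 4 and 26, 20 and 28 in DIFF replicates 1, 2 and 4. The means were 22.0 ± 3.46 and 24.7 ± 4.16 (SD, n = 3; exact permutation p = 0.7). The *Sox9* window held 8, 4 and 6 peaks in PROLIF and 10, 7 and 8 in DIFF, with means of 6.0 ± 2.0 and 8.33 ± 1.53 (SD, n = 3; exact permutation p = 0.3). The *Sox10* window held 13, 13 and 15 peaks in PROLIF and 18, 14 and 18 in DIFF, with means of 13.7 ± 1.15 and 16.7 ± 2.31 (SD, n = 3; exact permutation p = 0.2). Each DIFF mean was higher, but the states overlapped in every window. With 3 libraries per state the smallest p this test can give is 0.1. Its p-values therefore cannot decide whether the peak numbers differ between the states. Over all protein-coding genes, 9.0% had windows with more peaks in every DIFF than in every PROLIF library, and 1.32% the reverse.

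Covered length gave the same direction. Peaks covered 9.38, 7.45 and 6.33 kb of the *Sox8* window in PROLIF and 10.5, 9.16 and 11.9 kb in DIFF (exact permutation p = 0.2, n = 3 per state). They covered 7.57, 5.99 and 5.96 kb of the *Sox10* window in PROLIF and 7.88, 7.20 and 8.62 kb in DIFF (exact permutation p = 0.2, n = 3 per state). In the *Sox9* window they covered 4.29, 3.36 and 2.29 kb in PROLIF and 4.59, 4.31 and 4.41 kb in DIFF, without overlap (exact permutation p = 0.1, the smallest possible, n = 3 per state). Over all protein-coding genes, 12.6% had a window with DIFF above PROLIF without overlap and 2.84% the reverse.

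No region of the windows was found in all PROLIF and no DIFF libraries (PROLIF-only), a pattern shown by 1.78% of all merged regions. The reverse (DIFF-only) was found at 2 of the 66 regions (3.03%), against 3.47% of all merged regions, so these windows held no more of them than the genome. The first DIFF-only region lay 92.8 kb upstream of *Sox8*, on chromosome 17 from 25663130 to 25663851, in intergenic DNA beyond *Lmf1*. It stood at percentiles 55.6, 62.7 and 62.3 in DIFF replicates 1, 2 and 4. The second lay 78.7 kb downstream of *Sox9*, on chromosome 11 from 112860863 to 112861156, at percentiles 7.66, 44.2 and 55.4, and it holds a SOX motif in the sequence above. Its peak in DIFF 1 rested on 13 reads at the summit. Leaving out a library loosens this definition, so the count of state-only regions can then only stay or rise. Without PROLIF replicate 1 there were 4 DIFF-only regions and without DIFF replicate 2 there were 5. Without PROLIF replicate 4 there was 1 PROLIF-only region. The shares over all merged regions under the looser definition were not computed.

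More DIFF than PROLIF libraries had a peak at 24 of the 66 regions (36.4%), close to 34.8% of all merged regions. More PROLIF than DIFF libraries had a peak at 7 regions (10.6%), against 25.1% of all merged regions. Of these 7 regions, 5 lay in the *Sox8* window. The *Sox10* window had 9 regions with more DIFF libraries and 1 with more PROLIF libraries, and 6 of those 9 were peaks of a single library. No test was run on these shares.

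**Figure D3:**
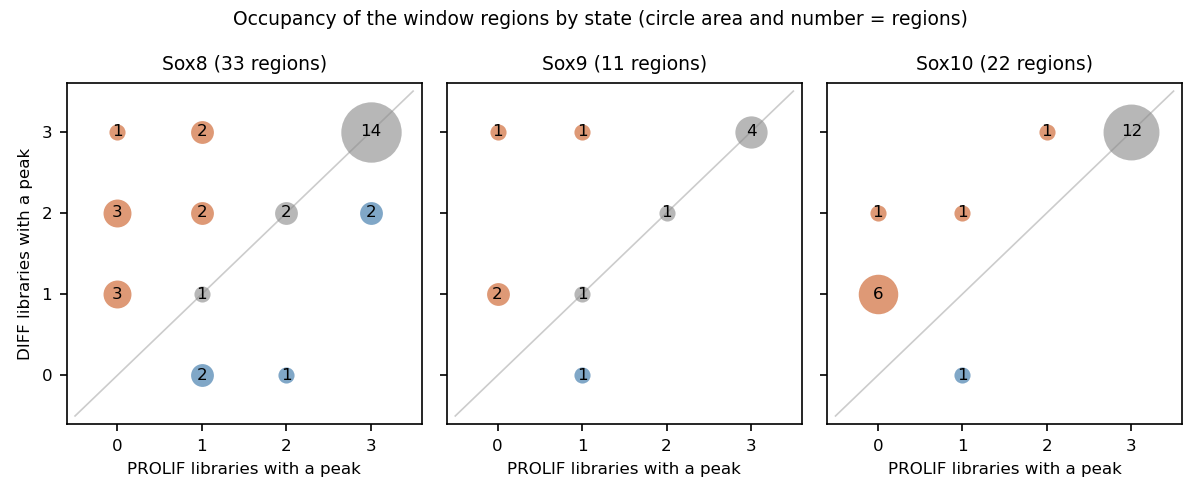
Number of PROLIF libraries (x axis) and of DIFF libraries (y axis) with a peak at each of the 66 regions, with circle area and number giving the regions at that combination. The circle at 3 and 3 holds 14, 4 and 12 regions for *Sox8*, *Sox9* and *Sox10*, and the combination of 3 PROLIF and no DIFF libraries is empty for all 3 genes.

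For the 30 regions found in all 6 libraries, ranks were compared between the states with limma on normal scores of the within-list rank, fitted over all 40164 such regions of the genome. DIFF ranks were higher in the mean at 24 of the 30 regions (80.0%), with a median difference of 0.27, against 62.9% and a median of 0.11 over all 40164 regions. The split was 11 of 14 regions around *Sox8*, 2 of 4 around *Sox9* and 11 of 12 around *Sox10*. The median over all regions tested fell to 0.04 with lists of equal length and to 0.05 with ranks taken among the 40164 regions alone. The shares in the windows were not recomputed under these scalings. At an adjusted p of 0.05, 3 of the 30 regions were called higher in DIFF, against 8.56% of all regions tested. None was called higher in PROLIF, against 6.42% of all regions tested, and 6 of the 30 had an unadjusted p under 0.05, against 29.5%. A share of 3 in 30 is near the background, so the number of calls is not a result about these genes. Over the genome 57.1% of the calls were higher in DIFF, but 43.7% when fold enrichment was compared after quantile normalisation, and 46.7% when ranks were taken among the 40164 regions alone, so the direction of the calls over the genome changed with the scaling. It also changed with single libraries, to 34.8% without DIFF 4, 46.6% without PROLIF 4 and 74.0% without PROLIF 1, and the share of regions called higher in DIFF moved between 3.27 and 15.1%.

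The region 47.9 kb upstream of *Sox8* had the largest rank difference by a small margin, and without PROLIF 1 or without DIFF 1 that of the region 13.2 kb downstream of *Sox10* was larger. The region upstream of *Sox8* lies in an intron of *Lmf1*, on chromosome 17 from 25618501 to 25618918, 39281 bp from the *Lmf1* start, which is its nearest protein-coding start site. It stood at percentiles 23.0, 29.6 and 35.5 in PROLIF replicates 1, 2 and 4 and at 81.0, 59.3 and 73.5 in DIFF replicates 1, 2 and 4. The summit held 15, 16 and 17 reads in PROLIF and 48, 28 and 53 reads in DIFF. Every DIFF library stood far above every PROLIF library. The background was 2.97, 2.94 and 2.85 reads in these PROLIF libraries and 3.63, 2.96 and 6.01 reads in these DIFF libraries, and its part in the difference was not tested. The rank difference was 1.13 with a standard error of 0.26 (limma, Benjamini-Hochberg adjusted p = 0.00273). The call was lost without DIFF replicate 1, at an adjusted p of 0.0559, with the difference at 0.98. With lists of equal length its PROLIF 1 peak fell below the shortened list, so the region had no rank there and was not tested.

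The second call was the promoter region of *Ankrd54*, 102 kb downstream of the *Sox10* start and at the edge of its window. It stood at percentiles 96.7, 96.3 and 95.9 in PROLIF and at 98.9, 97.3 and 98.6 in DIFF, without overlap. Its rank difference was 0.35 with a standard error of 0.12 (limma, adjusted p = 0.036), and the call was lost when PROLIF 2, PROLIF 4, DIFF 1 or DIFF 4 was left out, and with quantile-normalised fold enrichment, where the difference was 0.05. The third lay 13.2 kb downstream of the *Sox10* start and past the end of the gene, on chromosome 15 from 79151904 to 79152304, 1108 bp from a start site of *Polr2f*. The peaks stood at percentiles 43.0, 16.7 and 5.16 in PROLIF and at 43.0, 63.1 and 63.2 in DIFF, so replicate 1 had nearly the same rank in both states. Its rank difference was 1.09 with a standard error of 0.37 (limma, adjusted p = 0.0437), and the call was lost when any library other than PROLIF 1 was left out, with lists limited to q of 0.01 and with quantile-normalised fold enrichment.

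Percentiles did not overlap between the states at 8 of the 30 regions. DIFF was higher at 7 of them (background 21.1%), namely 3 around *Sox8*, 1 around *Sox9* and 3 around *Sox10*. PROLIF was higher at 1 (background 11.7%), an intergenic region 98.0 kb upstream of *Sox8*. Its percentiles were 54.7, 54.8 and 53.5 in PROLIF and 32.3, 29.1 and 43.6 in DIFF (limma, adjusted p = 0.241). By the numbers of the input data in their peak names, the libraries fall into 2 ranges, each with both states (PROLIF 1, PROLIF 4 and DIFF 1 in the lower range, PROLIF 2, DIFF 2 and DIFF 4 in the higher). The DIFF minus PROLIF difference in peak number was 3.0 in the lower and 4.0 in the higher range for the *Sox8* window, 3.0 and 3.5 for the *Sox9* window and 4.0 and 3.0 for the *Sox10* window. For the *Sox8* promoter it was 6.92 and 15.8 percentile points, for the region 13.2 kb downstream of *Sox10* 18.9 and 46.5, and for the region 47.9 kb upstream of *Sox8* 51.8 and 36.8. Where the states do not overlap the sign within a range is fixed, and with 1 library of a state in each range no test within a range could be made.

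**Figure D4:**
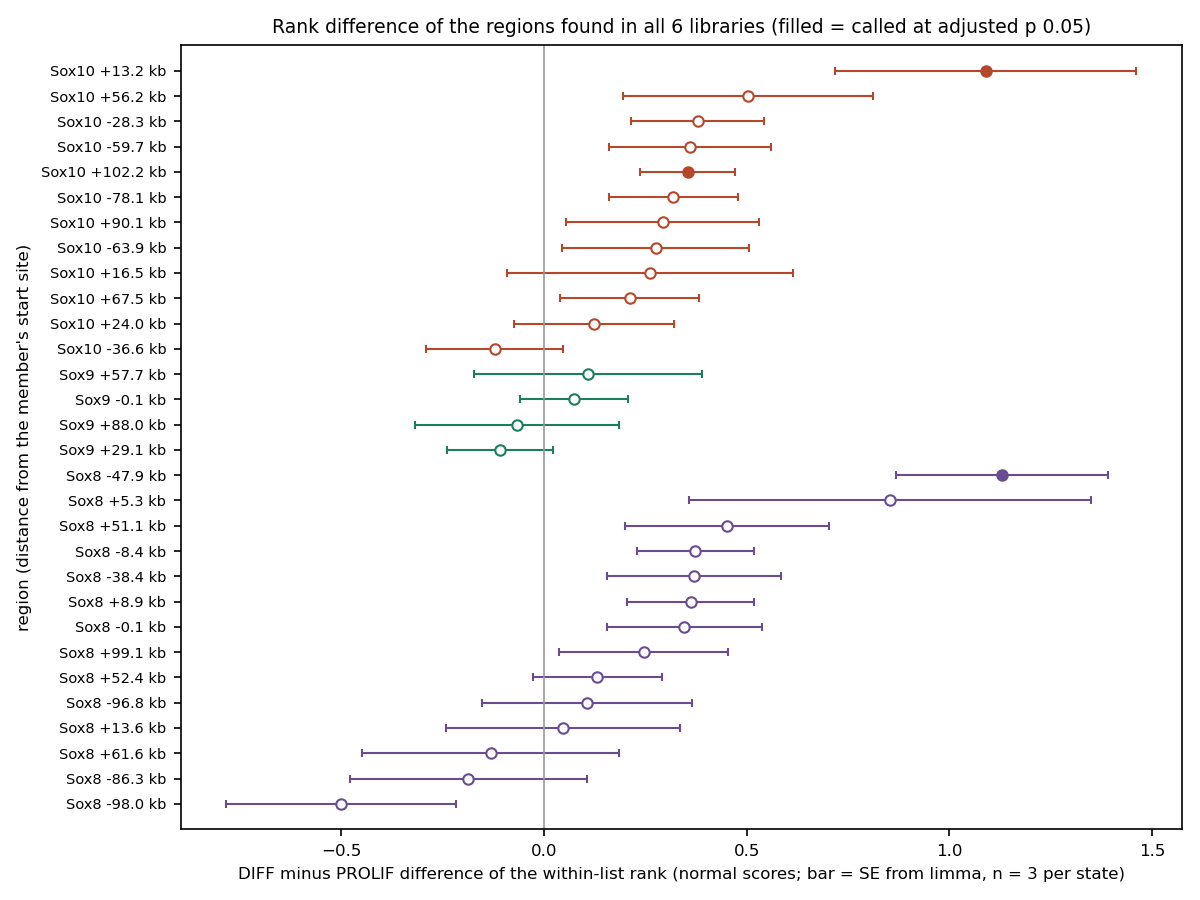
DIFF minus PROLIF rank difference on the normal score scale (x axis, points with limma standard errors) for the 30 regions found in all 6 libraries (y axis, distance from the start site of the member), with called regions filled. The 3 filled points lie 47.9 kb upstream of *Sox8* and 13.2 and 102 kb downstream of *Sox10*, and the 4 *Sox9* regions lie close to 0.

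To describe what the regions share in sequence, both strands of each region, from 100 bp before to 100 bp after the summit, were searched for 6 motifs. The motifs were those named above and the E-boxes CAGATG and CAGCTG, and none of them contains another. A SOX motif was found in 23 of the 66 regions (34.85%), against 29.15% of all regions, which lies within the 95% exact binomial interval of 23.5 to 47.6. Within 50 bp of the summit it was found in 28.79% (18.3 to 41.3), and the 16.78% of all regions lies outside that interval. For the 30 regions found in all 6 libraries it was 26.67% at this width (12.3 to 45.9). The 15.2% of all such regions lies within that interval. Around *Sox9* it was found in 6 of 11 (54.55%, 95% exact binomial interval 23.4 to 83.3), around *Sox8* in 11 of 33 and around *Sox10* in 6 of 22. The genome share lies within the interval for *Sox9*. AP-1 motifs were found in 3 of 11 regions around *Sox9*, 2 of 33 around *Sox8* and 0 of 22 around *Sox10*, against 5.758% of all regions. The interval for *Sox9* ran from 6.02 to 61.0%, and that for *Sox10* up to 15.4%. NFI motifs were found in 18.18% of the 66 regions and 18.35% of all regions, CAGATG in 19.7% and 17.26%, CAGCTG in 27.27% and 19.63%, and GC boxes in 15.15% and 12.67%. The genome share also lies outside the intervals for AP-1 around *Sox9* and for CAGCTG around *Sox8* (12 of 33, 36.36%, 20.4 to 54.9). The intervals cover counting error only and treat regions as independent. They are not adjusted for the number of motifs, widths and sets searched, so a share outside one was not a test of enrichment.

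The promoters whose percentiles over the 6 libraries were most like those of each member were then named, by Euclidean distance over the 6 values among 14125 other genes with a promoter peak in all 6. For *Sox9* they included *Gm14419* (distance 2.67 percentile points) and *Tram1*, a protein of the translocation channel (3.00). For *Sox8* they were *Vat1* (2.78), the small GTPase *Rnd2* (3.16) and *Peli3*, an E3 ubiquitin ligase of innate immune signalling (3.75). *Sox10* had no promoter peak and was not compared.

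Known inducers, partners and targets of the SOXE factors were described by their promoter peaks. Over 6 lists, 40 of 49 genes (81.63%) had a promoter peak in all 6 libraries, against 64.4% of protein-coding genes. For 14 of these 40 genes (35.0%) every DIFF percentile was above every PROLIF percentile, against 26.0% of genes with a promoter peak in all 6, and for 2 (5.00%) the reverse held, against 4.79%. The lists hold genes picked for their biology, and no test was run on them.

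All 4 inducers of the Notch pathway had a promoter peak in all 6 libraries. Of these, *Rbpj*, the DNA-binding partner of activated Notch, stood between percentiles 92.4 and 96.8, and the Notch target *Hes5* between 86.0 and 93.3. The receptor gene *Notch1* stood between 77.3 and 90.2 and the Notch target *Hes1* between 68.3 and 89.1. Among 11 partner factors 10 had a promoter peak in all 6 libraries. The highest were *Nfia*, a gliogenic nuclear factor that acts with SOX9 (90.5 to 94.5), the SOXD gene *Sox5* (81.4 to 87.4), the oligodendrocyte lineage gene *Olig1* (78.2 to 86.0) and the chromatin remodeller gene *Chd7* (77.4 to 88.1). *Zfp488*, an oligodendrocyte zinc finger factor, had one in PROLIF 1 and DIFF 1, at 33.5 and 13.3.

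The oligodendroglial targets were the list with the lowest share of such promoters, 5 of 10. *Pdgfra*, the growth factor receptor of oligodendrocyte precursors, stood between percentiles 51.3 and 79.1. The myelin gene *Cnp* (31.7 to 54.5) and the precursor marker *Cspg4* (29.0 to 85.0) also had a peak in all 6 libraries. The myelin gene *Mag* and the connexin gene *Gjb1* had none. *Mog*, another myelin gene, had a peak in PROLIF 1 alone, at 12.9. The differentiation brake *Gpr17* had one in 1 PROLIF library, at 18.1, and in all DIFF libraries, at 27.4, 50.5 and 57.5.

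All 10 astroglial targets had a promoter peak in all 6 libraries. The water channel gene *Aqp4* stood between percentiles 95.9 and 99.2, *Apcdd1* between 89.8 and 95.2, the lipid-binding *Fabp7* between 89.2 and 99.3 and *Mmd2* between 87.2 and 96.1. For 4 of the 10 (40.0%) every DIFF percentile was above every PROLIF percentile, against 26.0% of genes with a promoter peak in all 6. The reverse held for none of the 10, against 4.79%, and 6 overlapped. This order was not particular to astroglial targets. DIFF was also higher without overlap for 3 of 6 neural crest and Schwann cell targets (50.0%) and 2 of 5 cartilage and gonad targets (40.0%). It was so for 3 of 10 partner factors, 1 of 4 inducers and 1 of 5 oligodendroglial targets. The reverse held for 1 partner factor and 1 cartilage and gonad target. *Gfap*, the astrocyte intermediate filament gene, and the glutamate transporter gene *Slc1a2* were chosen after their values were seen. *Gfap* stood at 71.5, 71.3 and 67.1 in PROLIF and at 85.1, 90.4 and 90.3 in DIFF, without overlap. *Slc1a2* had a lower mean in DIFF, with 82.1, 68.1 and 80.8 in PROLIF and 76.3, 61.6 and 77.8 in DIFF, and overlapped.

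Of the neural crest and Schwann cell targets 6 of 7 had a promoter peak in all 6 libraries. The pigment cell factor gene *Mitf* stood between percentiles 89.8 and 95.9, *Egr2*, which drives Schwann cell myelination, between 86.8 and 94.5, and the receptor gene *Ret* between 23.2 and 70.3. The neural crest factor gene *Foxd3* had a peak in 3 PROLIF and 2 DIFF libraries. Of the cartilage and gonad targets 5 of 7 had one in all 6 libraries. *Ptgds* (68.0 to 85.1), *Fgf9* (67.6 to 80.0) and the collagen genes *Col9a1* (64.7 to 90.7) and *Col2a1* (24.2 to 69.0) stood highest. The cartilage proteoglycan gene *Acan* had one in 2 PROLIF and 2 DIFF libraries, and the collagen gene *Col11a2* in 2 PROLIF and 3 DIFF libraries.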

How the data were processed

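ATAC-seq peak lists of 6 *Srr2* del/del libraries were used, 3 PROLIF and 3 DIFF, grouped by the labels. For these files the authors removed adapters (Cutadapt) and low-quality bases (Trimmomatic), aligned pairs with Bowtie2 to GRCm38 (mm10), marked duplicates with Picard, and ran MACS2 on each library separately, keeping narrow peaks at a false discovery rate of 0.05. Tool versions, any transposase shift and any blacklist are not given in the sources used here, and they bear on where peaks end and how many there are. The authors deposited a fold enrichment for each peak, which is a ratio over local background within the library. They also deposited −log10 p and −log10 q against that background, and a deposited score equal to 10 times the −log10 q.

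Gene models were those of GENCODE M21, which shares the build of the files, whereas the study used another release. Percentiles rank the peaks of a list by −log10 p. Summit pileups and backgrounds were solved from fold and p under a Poisson model and were whole, within 0.02 reads, for at least 99.9855% of peaks. Background is percentile 1 of the local backgrounds of a list. State labels were permuted exactly (two-sided) for single values, and regions were compared with limma 3.58.1 in R 4.3.3, with Benjamini-Hochberg adjustment over 40164 regions. P-values measure the spread between these libraries. When tested on simulated data with 40164 regions, the limma comparison called 60.0% of regions shifted by 1 normal score unit and 0.015% of the others. The simulation gave every region the same spread (0.293 normal score units) and did not model depth, so these rates need not hold for these libraries. Python 3.11.15 was run with pandas 2.3.3, numpy 2.4.6, scipy 1.17.1, matplotlib 3.10.9 and pysam 0.24.0.

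The paper speaks of the same cultures in PROLIF and DIFF, which may refer to the pairing of ATAC-seq with RNA-seq. Both states have replicates 1, 2 and 4 in the labels, but no source used here ties a number to a culture. Libraries were therefore not paired in the tests reported.

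Named genes were the members, protein-coding genes with a start site in a window, list genes without a promoter peak in all 6 libraries, up to 4 genes per list with the highest lowest percentile, and the 3 most like genes. Regions described singly were state-only regions, regions called by limma and the 3 strongest in each window over 3 kb from a protein-coding start site. The members, lists and rules were chosen with earlier results of these data known. Some genes and sequences that these rules select are not reported here.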

Additional observations from a re-analysis of the deposited data

How the results depend on the processing

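Results were recomputed with lists limited to q of 0.01 or 0.001, with lists of equal length, windows of 50 or 200 kb, promoters of 1 kb, ranks by fold enrichment, occupancy counted from 50% cover of a region upwards, shorter motif windows with 50 bp on each side of the summit, the replicate block, and each library removed in turn. Ranks among the regions of all 6 libraries alone were added after seeing the data. The window and promoter differences kept their direction under these alternatives, apart from the number of peaks in the *Sox8* window, whose difference was 0 with 50 kb on each side. The design could not reach 0.05 in any of these tests. The *Sox9* promoter difference fell from 1.63 to 0.644 percentile points with lists of equal length and to 0.025 by fold enrichment, and that of *Sox8* from 12.4 to 5.60 by fold enrichment.

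Leaving out 1 library moved the difference in peaks to between 1.00 and 5.00 for *Sox8*, 1.33 and 3.33 for *Sox9* and 2.33 and 4.33 for *Sox10*, and in covered length to between 2.09 and 3.63, 0.613 and 1.61, and 1.03 and 1.93 kb. For the promoter percentile it gave 8.32 to 16.9 for *Sox8* and 1.14 to 2.12 for *Sox9*. DIFF-only regions numbered 2 to 5 and PROLIF-only regions 0 to 1, counts that can only stay or rise when a library is left out. Regions called higher in DIFF numbered 1 to 4 of 30, with 1 when PROLIF 2, PROLIF 4, DIFF 1 or DIFF 4 was left out. The share over all regions tested ran from 3.27 to 15.1%.

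DIFF-only regions numbered 1 at q of 0.001, 1 when 50% of the region had to be covered and 0 with 50 kb windows. The shares over all merged regions were not computed at q of 0.001 or at 50% cover. Regions called higher in DIFF numbered 1 of 30 with quantile-normalised fold enrichment, against 6.89% of all regions tested. Lists of equal length called 2 of 28 regions higher in DIFF, against 9.23%, and 1 of 28 higher in PROLIF, against 10.2%. The share called higher in PROLIF over all regions was 6.42% in the main setting. The cause was not tested. Motif windows of 50 bp on each side gave 9.09% for NFI motifs and 10.6% for CAGATG, as shorter windows hold fewer motifs. SOX motifs were in 28.79% there against 16.78% of all regions. Promoters of 1 kb left 2 oligodendroglial targets with a promoter peak in all 6 libraries.

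Rank deviations from the state means correlated at 0.0772 to 0.149 between same-numbered libraries and at -0.0951 to -0.011 between others, and 6 of 6 libraries correlated best with their own number, a hint from the data and not the design. With the replicate block there were 9 DIFF-only regions (13.6%, against 11.1% of all merged regions) and 1 PROLIF-only region (1.52%, against 6.29%). This is a looser definition than that of the main count. The block called 3 of 30 regions higher in DIFF, against 7.52% of all regions tested. The blocked window and promoter differences equal the unblocked ones. Exact sign flips gave p = 0.25, the smallest possible, for *Sox9* and *Sox10* peaks, covered length in all 3 windows and the *Sox9* promoter, p = 1.0 for *Sox8* peaks and p = 0.5 for the *Sox8* promoter. The block changed no other call.

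Depth limits what a missing peak means, since DIFF replicate 4 had 2.11 times the lowest background. The lists hold no read totals, and states with 3 libraries each leave small differences undetected.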
